A study of Mus musculus with 2 samples.

Results

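The 8 genes described here encode neuronal ion channels that carry alternative exons or exon pairs linked to the polypyrimidine tract binding (PTB) proteins. They are the voltage-gated calcium channel genes Cacna1a, Cacna1b, Cacna1c, Cacna1d and Cacna1h, the potassium channel gene Kcnma1, the sodium channel gene Scn8a and the glutamate receptor gene Grin1. They were chosen by name, with earlier results of these data known, and they are 8 of 21420 genes with a RefSeq isoform matched to a gene symbol. Within them lie 405 of the 228333 exon trios of SpliceTrap, a program that models how often the middle of 3 exons is kept in the mRNA. The result is given here as percent spliced in (PSI). PSI was read only for trios that reached 20 reads in both libraries, which left 198 of the 405 trios.

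The cells were N2A, a mouse neuroblastoma line. One group was transfected with a control shRNA (shControl) and the other with an shRNA against Ptbp1, both with Lipofectamine, and total RNA was taken after 3 days of culture from all collected cells. Each group is 1 library of strand-specific paired reads of 100 bases, so no difference below has a replicate check. Fisher's exact tests on reads compare those 2 libraries and not the conditions, and intervals cover counting error only, since reads from PCR are not independent molecules.

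PTBP1 is an RNA-binding protein that recognizes short pyrimidine elements such as UCUU and CUCUCU, often in the intron just upstream of an exon that it represses. It is abundant outside neurons and falls as neurons mature, when the related protein PTBP2 takes its place. Voltage-gated calcium and sodium channels open on depolarization, the BK potassium channel encoded by Kcnma1 opens with calcium and voltage, and Grin1 encodes the subunit that every NMDA-type glutamate receptor needs. All are long transcripts in which exons are swapped or skipped to tune gating, pharmacology or placement.

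The exons on which the results turn are shown first. Cacna1c, which encodes the pore-forming subunit of an L-type calcium channel, has 2 coding exons of 104 nt that lie 290 bases apart on the minus strand of mm9 and share both flanking exons. Transcripts normally take 1 exon of such a pair. The upstream exon lies at chr6:118692283-118692386 and the downstream exon at chr6:118691889-118691992. They are identical at 72 of 104 positions, and capitals mark the bases that differ.
upstream 104-nt exon: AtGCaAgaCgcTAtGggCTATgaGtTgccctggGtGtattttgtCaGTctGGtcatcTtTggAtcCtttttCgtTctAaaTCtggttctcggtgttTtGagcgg
downstream 104-nt exon: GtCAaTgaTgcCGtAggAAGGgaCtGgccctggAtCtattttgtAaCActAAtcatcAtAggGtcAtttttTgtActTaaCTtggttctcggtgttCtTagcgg

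The 100 intron bases before each of these exons were also read from mm9, at chr6:118692387-118692486 for the upstream exon and chr6:118691993-118692092 for the downstream exon. Capitals mark TCTT and CTCT, DNA forms of PTB recognition elements, searched on the transcribed strand with overlaps allowed.
before the upstream 104-nt exon: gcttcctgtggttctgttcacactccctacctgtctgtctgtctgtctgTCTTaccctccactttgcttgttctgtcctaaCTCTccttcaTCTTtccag
before the downstream 104-nt exon: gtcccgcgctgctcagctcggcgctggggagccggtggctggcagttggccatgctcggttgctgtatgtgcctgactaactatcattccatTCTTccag
The stretch before the upstream exon is 77% pyrimidine, higher than 99.4% of 113619 exons of the files, whose median is 55%. The stretch before the downstream exon is 57% pyrimidine, close to that median.

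A pair of 60-nt coding exons of Cacna1c, 149 bases apart, is used in the same exclusive way. The upstream exon lies at chr6:118624573-118624632 and the downstream exon at chr6:118624364-118624423, and they are identical at 35 of 60 positions, again with differing bases in capitals.
upstream 60-nt exon: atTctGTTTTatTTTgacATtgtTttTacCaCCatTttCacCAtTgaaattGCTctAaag
downstream 60-nt exon: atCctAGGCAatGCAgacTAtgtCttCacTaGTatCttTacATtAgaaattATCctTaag

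The intron stretches before 4 further exons are given with TCTT and CTCT in capitals, since these exons are described one by one below. They precede a 75-nt exon of Cacna1c (chr6:118665996-118666095), the 111-nt and 63-nt exons of Grin1 (chr2:25150069-25150168 and chr2:25166926-25167025) and a 12-nt exon of Cacna1b (chr2:24512243-24512342), all on the minus strand of mm9.
before the Cacna1c 75-nt exon: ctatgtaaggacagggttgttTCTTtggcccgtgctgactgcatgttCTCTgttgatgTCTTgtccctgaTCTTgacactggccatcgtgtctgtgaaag
before the Grin1 111-nt exon: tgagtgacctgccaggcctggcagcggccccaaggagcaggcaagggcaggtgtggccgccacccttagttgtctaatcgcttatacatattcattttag
before the Grin1 63-nt exon: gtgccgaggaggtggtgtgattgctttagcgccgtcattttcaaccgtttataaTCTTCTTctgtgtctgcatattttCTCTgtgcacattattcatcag
before the Cacna1b 12-nt exon: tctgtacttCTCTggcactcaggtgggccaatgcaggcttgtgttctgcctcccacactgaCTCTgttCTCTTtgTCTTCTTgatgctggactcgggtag

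Over the 153 distinct exons of the channel genes with enough reads, the median pyrimidine share of the 100 bases upstream was 57%. CTCTCT was present upstream of 24 of them (15.7%, against 9.76% of all 113619 exons), TCTT upstream of 97 (63.4% against 64.0%) and CTCT upstream of 100 (65.4% against 55.8%). These are descriptions of letters and not of binding.

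The libraries were deep. Isoform coverage summed to the equivalent of 189691286 reads of 100 bases in the control and 154700239 in the knockdown. The middle exons of the trios held 165368145 and 130270735 reads. The target of the shRNA was lower in the knockdown library: Ptbp1 exons held 93526 reads in the control and 24814 in the knockdown, a log2 ratio of -1.57 after scaling to all exon reads (95% counting interval -1.59 to -1.55), or 0.337 of the control level. Ptbp2, the neuronal paralog, had 11433 and 21716 exon reads (log2 ratio 1.27), and Ptbp3, the other paralog, had 8614 and 4497 (log2 ratio -0.59). Of 15 neuroblastoma and neuronal markers, 12 reached 100 read equivalents in at least 1 library, and their RefSeq isoforms summed to 2011 and 2274 ppm of the library. Astrocyte, muscle and blood cell markers reached that depth in 0 of 5, 0 of 6 and 0 of 5 genes. Of the oligodendrocyte and Schwann cell markers 2 of 5 did, with sums of 5.71 and 3.54 ppm, and of the fibroblast markers 1 of 6 did, with sums of 0.989 and 5.40 ppm. These counts and sums rest on RefSeq isoforms. The blood cell markers Cd68 and Hbb-b1 had no matched RefSeq isoform, and Cd68 held 128 exon reads in the control and 72 in the knockdown. The muscle marker Tnnt2 held 205 and 84. Pdgfra made up 0.712 and 4.69 ppm of the fibroblast sums, while all isoforms of its locus came to 3.08 and 6.15 ppm. The part of these low marker levels in the results below was not tested.

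The 8 genes fell into a high and a low set by RNA level. Levels of different genes were compared as RPKM over the SpliceTrap exons, that is, exon reads scaled to exon length in kilobases and to all exon reads of the library. In the control library Grin1 stood at 15.5, Scn8a at 9.21, Cacna1c at 8.50 and Cacna1b at 7.94. Cacna1a, which encodes the P/Q-type calcium channel pore, stood at 0.311, and Cacna1h, which encodes a T-type pore, at 0.112. Kcnma1 stood at 0.0301, and Cacna1d, the other neuronal L-type gene of the set, at 0 reads. In the knockdown library the order was Grin1 at 29.8, Cacna1b at 12.2, Scn8a at 11.5, Cacna1c at 11.2, Cacna1a at 0.366, Cacna1h at 0.289, Kcnma1 at 0.0488 and Cacna1d at 0.00206. With 1 library a group the spread of these levels is not known, and the order of Scn8a, Cacna1c and Cacna1b, which differ little, is that of these libraries only.

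**Figure D1:**
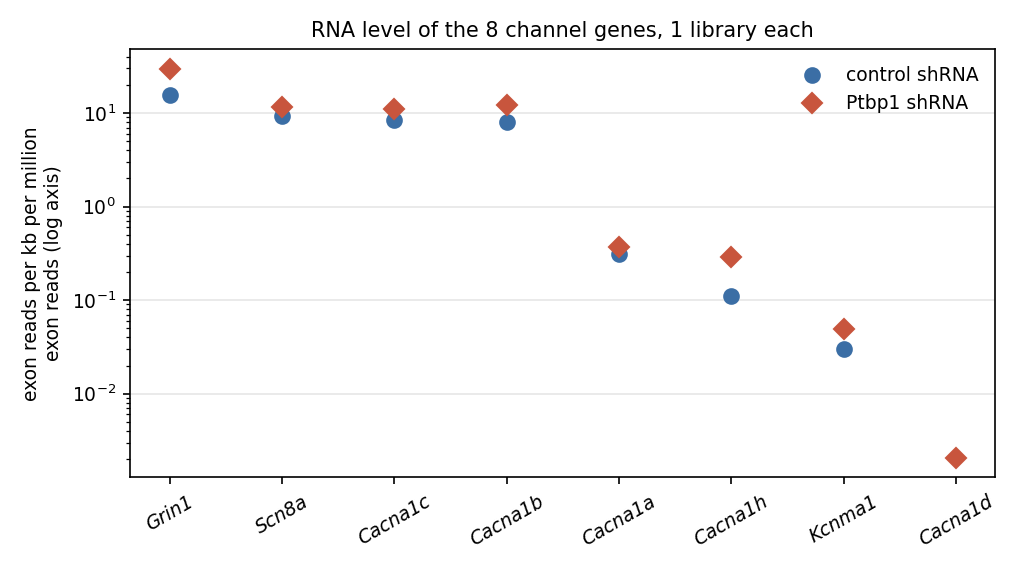
RNA level of each channel gene as RPKM over its SpliceTrap exons, on a log axis, with 1 point for the control library and 1 for the Ptbp1 knockdown library. Grin1, Scn8a, Cacna1c and Cacna1b lie between 7.94 and 29.8, the other 4 genes lie at 0.366 or below, and Cacna1d in the control is not drawn because it had 0 reads.

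The low genes could be assayed for splicing hardly or not at all. Cacna1d had 65 trios and Kcnma1 had 58, among them 12 of the cassette class in Kcnma1, and none of these trios reached 20 reads in both libraries. The deepest trio of Cacna1d held 0 reads in the control and that of the knockdown held 2, while the deepest of Kcnma1 held 8 and 6. Kcnma1 exons held 18 and 23 reads in all, so no statement on exons of the BK channel can be drawn from these libraries. Cacna1h passed with 2 of 37 trios, both above 95% PSI in each library. Cacna1a passed with 7 of 53 trios, and its reads were at 1 end of the gene. The first 22 of its 45 exons held 0 reads in the control and 8 in the knockdown, while the last 23 held 326 and 294. Just inside the limit stood a Cacna1c trio with 37 and 25 reads, and just outside it a Cacna1a trio with 20 and 19.

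Cacna1b, Cacna1c, Scn8a and Grin1 were covered almost in full, with 66 of 67, 71 of 73, 29 of 29 and 23 of 23 trios. Most of their exons were included throughout. Of the 198 trios, 167 had a PSI above 95% in both libraries, and 141 had no skipping read in either library (71.2%, against 61.5% of all 145628 trios of the files with the same depth). PSI was higher in the knockdown by 5 points or more in 12 trios and lower by as much in 7, while 179 differed by less. Of all 145628 trios, 2.72% were higher and 2.66% lower by as much. Called changes needed this size and an adjusted p below 0.05 in Fisher's exact test on inclusion against skipping junction reads, with Benjamini-Hochberg adjustment over all 145628 trios. No trio of the channel genes was called, 0 up against 0.288% of all trios and 0 down against 0.178%. In the cassette class 0 of 12 were called up, against 4.3% of the 7740 cassette trios of the files, and 0 down, against 1.99%. At an unadjusted p below 0.05 there were 1 up and 2 down among the 198 trios (0.505% and 1.01%), against 0.994% and 1.62% of all trios. The absence of a call does not show that an exon was spliced alike in both libraries, so the values below are given with their intervals.

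**Figure D2:**
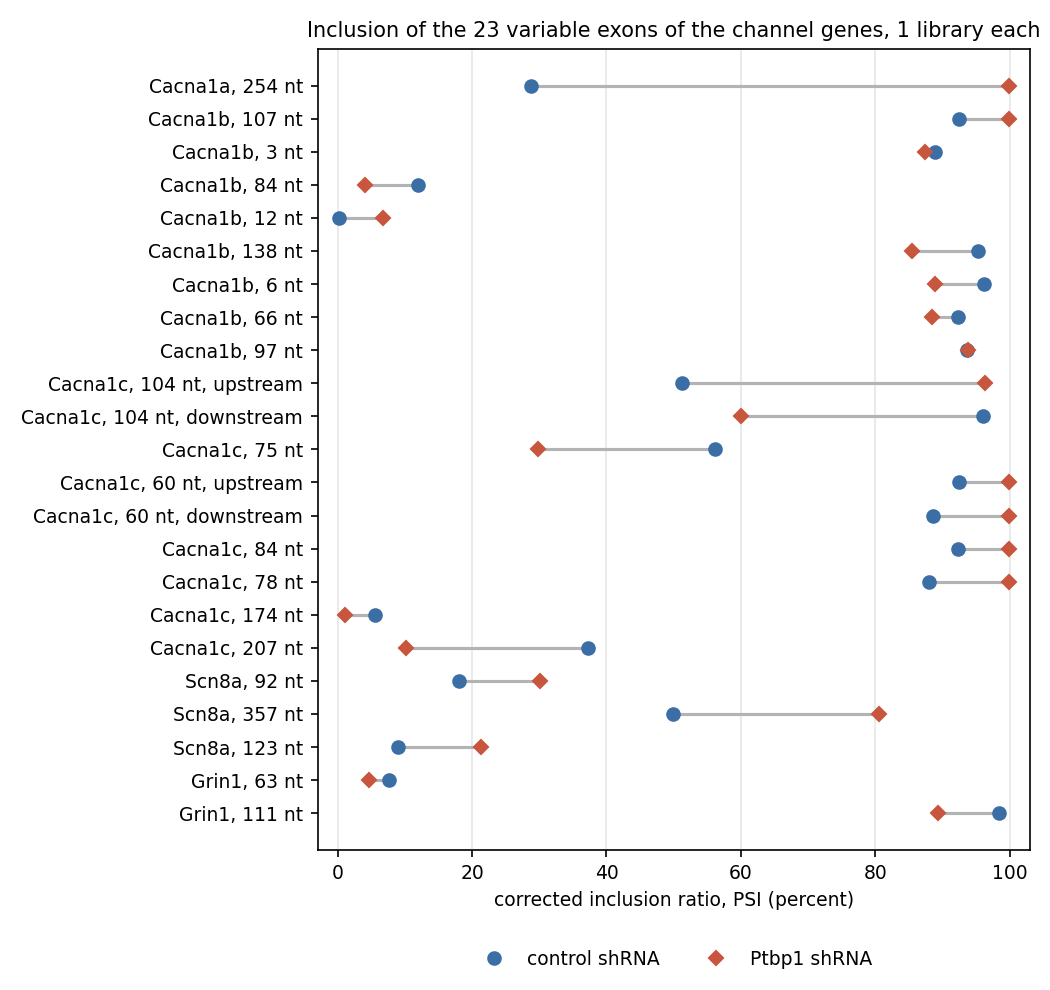
Corrected inclusion ratio (PSI, percent) of the 23 exons that had a PSI between 5 and 95 in a library or differed by 5 points or more, by gene in transcript order with the exon length, with a circle for the control library and a diamond for the Ptbp1 knockdown library. The 104-nt exons of Cacna1c differ in opposite directions, from 51.2 to 96.3 upstream and from 96.1 to 60.0 downstream.

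The clearest difference lay in the exclusive pairs of Cacna1c. For pairs of exons that share both flanking exons, the inclusion junction reads of the upstream exon were set against those of the downstream exon. Exclusive exons do not leave the skipping reads that the trio test needs, so this test was chosen after the data had been seen. The files hold 260 such pairs with at least 20 reads in each library, and 13.5% of them were called at an adjusted p below 0.05 with a change of 5 points or more. The channel genes hold 5, of which 2 share an exon, and 2 of the 5 were called, both in Cacna1c.

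In the 104-nt pair, the control library gave 17 upstream and 65 downstream reads, as the mean of both junctions of each exon. The knockdown library gave 61 upstream and 20 downstream reads. The upstream exon thus took 20.7% of the pair in the control (95% Wilson interval 13.4 to 30.7) and 75.3% in the knockdown (64.9 to 83.4). The share rose by 54.6 points (Newcombe interval 40.2 to 65.5; adjusted p = 6.2e-11, Fisher's exact test), and the intervals of the libraries do not overlap. Each junction gave nearly the same change when it was used alone, 53.0 points on the junction to the following exon and 56.6 points on the junction to the preceding exon. SpliceTrap, which sets each exon against skipping, gave the upstream exon a PSI of 51.2 in the control and 96.3 in the knockdown, and the downstream exon 96.1 and 60.0. Transcripts that skip both exons were few, with 3 reads in the control and 2 in the knockdown. The exon that gained reads is the one preceded by the 77% pyrimidine stretch printed above, with 2 TCTT and 1 CTCT, while the exon that lost them follows a stretch with 1 TCTT.

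In the 60-nt pair, the control library gave 42 upstream and 32 downstream reads and the knockdown 27 and 65. The upstream exon took 56.8% of the pair in the control (45.4 to 67.4) and 29.3% in the knockdown (21.0 to 39.3), so its share fell by 27.4 points (interval -40.9 to -12.3; adjusted p = 0.0046, Fisher's exact test). The single junctions gave -30.3 and -23.1 points. This switch ran toward the downstream exon, the opposite of the 104-nt pair. The bases before the upstream 60-nt exon are 78% pyrimidine with 1 CTCT and no TCTT, and those before the downstream exon are 65% pyrimidine with 1 CTCTCT and 1 TCTT. By SpliceTrap both exons were near full inclusion, at 92.5 and 99.9 for the upstream exon and 88.6 and 99.9 for the downstream exon. Skipping of both was rare, with 5 reads in the control and 0 in the knockdown.

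The other pairs did not pass. A pair of 84-nt exons of Cacna1c had an upstream share of 70.8% in the control and 82.4% in the knockdown (change 11.6 points, interval -2.83 to 25.6; adjusted p = 0.49, Fisher's exact test). On the junction to the following exon alone the shares were 63.4% and 89.2% (p = 0.0092, Fisher's exact test, not adjusted). On the junction to the preceding exon, which held more reads, they were 73.9% and 79.8% (p = 0.39, Fisher's exact test, not adjusted). That change was 5.93 points, with an interval of -6.10 to 18.0. The form of that pair in which the downstream exon is 6 nt shorter, at 78 nt, had shares of 80.7% and 84.8%. The 92-nt pair of Scn8a, at the place where sodium channel genes carry a neonatal and an adult version of 1 exon, had an upstream share of 95.2% and 91.4% (change -3.74 points, interval -9.28 to 1.32). Its single junctions gave different levels. In the control and knockdown the shares were 99.3% and 97.3% on the junction to the preceding exon. On the junction to the following exon they were 86.6% and 81.1%. The upstream 92-nt exon was thus the main form in both libraries, while its exact share depends on the junction.

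**Figure D3:**
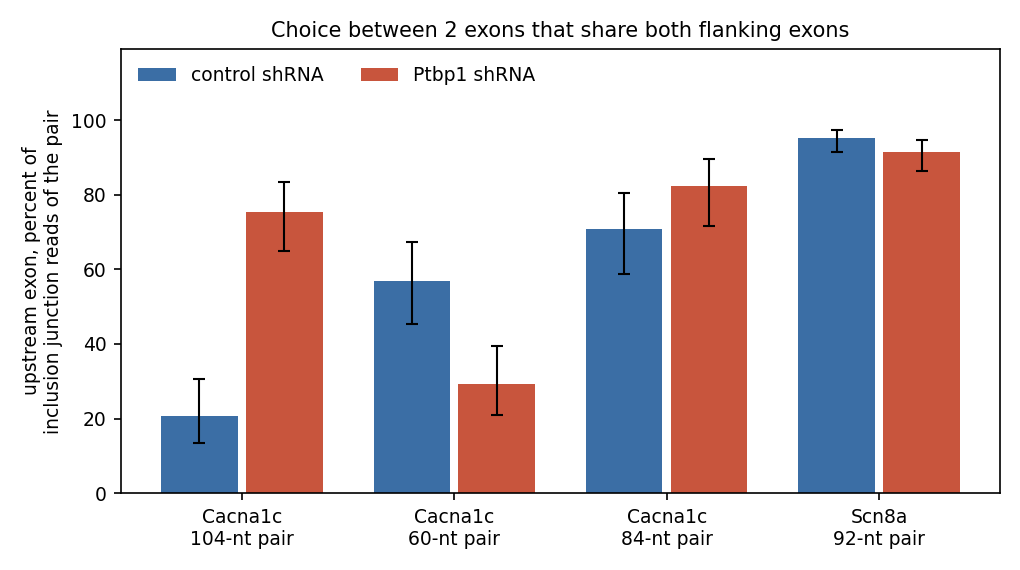
Share of the upstream exon among the inclusion junction reads of 4 exon pairs with shared flanking exons, in percent, for the control and Ptbp1 knockdown libraries, with 95% Wilson intervals as bars. The 104-nt pair goes from 20.7 to 75.3 and the 60-nt pair from 56.8 to 29.3, while the intervals of the other 2 pairs overlap between libraries.

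Cacna1c also has a 75-nt cassette exon (chr6:118665921-118665995, coding, frame kept), which lies in the cytoplasmic linker between the first and second domains of the channel. Its inclusion junctions held 49 and 35 reads in the control against 41 skipping reads, and 28 and 26 reads in the knockdown against 66 skipping reads. PSI was 56.1 in the control and 29.8 in the knockdown, and junction PSI was 50.6 (40.1 to 61.1) and 29.0 (20.8 to 38.9). Inclusion was thus lower in the knockdown library by 21.6 points on junctions, with an interval of -34.9 to -7.10. Fisher's exact test gave p = 0.0052 before adjustment and an adjusted p of 0.49 over all trios, so the difference did not pass.

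The remaining Cacna1c exons had small counts or small differences. The 84-nt and 78-nt exons of the exclusive pair had a PSI of 92.3 and 88.0 in the control, and 99.9 for both in the knockdown. In another trio of this 84-nt exon, with a 33-nt flanking exon, PSI was 99.3 in the control and 99.9 in the knockdown. A 207-nt form of an exon (chr6:118580243-118580449, partly coding) had a PSI of 37.2 in the control and 10.1 in the knockdown. Its 6 and 8 inclusion reads against 4 skipping reads in the control, and 3 and 1 against 0 in the knockdown, gave a junction change of the opposite sign (36.4 points, interval -32.7 to 64.6). The alternative 5′ splice site of the same exon, which adds 174 nt, stood at 5.6 and 1.1.

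Cacna1b encodes the pore of the N-type calcium channel, which drives transmitter release at many synapses. It holds 2 microexons among the named exons. The 12-nt exon (chr2:24512231-24512242, coding, frame kept) had 0 inclusion reads and 76 skipping reads in the control, and 7 and 1 inclusion reads with 97 skipping reads in the knockdown. PSI was 0.2 and 6.8, and the junction change of 3.96 points had an interval of -1.42 to 9.74. For the 6-nt exon (chr2:24494748-24494753), which the annotation does not hold as coding, the trio gave a PSI of 96.2 and 88.9, with a junction change of -11.2 points (interval -30.2 to 11.1). All of its inclusion reads, 37 in the control and 45 in the knockdown against 2 and 6 skipping reads, were on the junction to the following exon, and its junction to the preceding exon held 0. The trios of its neighbors gave other counts. The following exon joined it with 7 reads in the control and 1 in the knockdown, and joined the preceding exon directly with 7 reads in each. In trios of the preceding exon, its junction to the 6-nt exon held 11 and 6 reads, and its junction to the following exon 6 and 8. How often the 6-nt exon was included therefore cannot be stated from these counts. It follows a TG, while the other 20 of 21 named whole exons follow the usual AG. Of the bases before it 38% are pyrimidines, against 63% before the 12-nt exon with 3 TCTT and 3 CTCT.

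Another Cacna1b exon had an interval that left out 0. This 84-nt exon (chr2:24525593-24525676) is not coding in the annotation, and it had 16 and 6 inclusion reads against 86 skipping reads in the control and 5 and 1 against 85 in the knockdown. PSI was 11.9 and 4.0, and junction PSI was 11.3 and 3.41, a change of -7.93 points (interval -16.1 to -0.0821; p = 0.052, Fisher's exact test, adjusted p = 1). The 138-nt exon had a PSI of 95.3 and 85.5 and the 107-nt exon 92.4 and 99.9, with intervals across 0 for both. A deeper trio of the 107-nt exon, with a flanking exon of 768 nt and 425 and 632 reads, gave a PSI of 99.9 in both libraries. The 66-nt exon (92.3 and 88.5), the 97-nt exon (93.7 and 93.8) and a 3-nt shift of a 3′ splice site (88.9 and 87.4) differed by less than 5 points.

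Grin1 encodes the obligatory NMDA receptor subunit, and its 2 best known alternative exons stood near the ends of the scale. The 111-nt exon (chr2:25149958-25150068, coding, frame kept) encodes the first cassette of the cytoplasmic tail, which carries signals for placement of the receptor. It had 82 and 165 inclusion reads against 3 skipping reads in the control, and 142 and 219 against 28 in the knockdown. PSI was 98.4 and 89.3, and junction PSI was 97.6 (93.3 to 99.2) and 86.6 (81.3 to 90.6). The difference of -11.0 points had an interval of -16.5 to -5.15. Fisher's exact test gave the lowest p of all trios of the channel genes, 0.00038, and an adjusted p of 0.063, so it missed the threshold. With the larger of the inclusion junctions in place of their mean, the adjusted p was 0.030 and the exon was called down (change -9.55 points). The call therefore rests on how inclusion reads are counted. No TCTT, CTCT or CTCTCT lies in the 100 bases before this exon, and 50% of them are pyrimidines.

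The 63-nt exon of Grin1 (chr2:25166863-25166925) encodes the N-terminal cassette that changes the receptor's response to protons and polyamines. It was skipped in most transcripts of both libraries, with 5 and 9 inclusion reads against 127 skipping reads in the control and 5 and 7 against 176 in the knockdown. PSI was 7.6 and 4.7, and the junction change was -1.93 points (interval -7.39 to 2.64). A rise of more than 2.64 points thus lies outside the counting interval. The stretch before this exon holds 2 TCTT and 1 CTCT.

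Scn8a encodes a sodium channel pore found at the axon initial segment and nodes of Ranvier. Its 3 named exons had at most 2 skipping reads in a library, so their PSI rested on coverage more than on junctions. A 357-nt exon (chr15:100814120-100814476, coding, frame kept) had a PSI of 49.9 in the control and 80.6 in the knockdown. Its junctions held 55 and 26 reads against 2 skipping reads in the control and 74 and 68 against 1 in the knockdown. Junction PSI was thus 95.3 and 98.6, a change of 3.26 points (interval -3.68 to 14.1). The 100 bases before it, 72% pyrimidine, hold 7 overlapping matches of CTCTCT, the most of any named exon.

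The 123-nt exon of Scn8a (chr15:100854692-100854814) codes for part of the voltage sensor of the third domain, and its inclusion is needed for a full-length channel. Few reads touched it. Its inclusion junctions held 0 and 3 reads in the control and 3 and 10 in the knockdown, with 1 and 2 skipping reads, while 49 reads in each library joined the exon before it to the exon further upstream. PSI was 8.9 and 21.3, and the junction change of 11.1 points had an interval of -31.3 to 59.7, so no difference was detectable at this depth. The first 13 exons of Scn8a held 5358 reads in the control and 4364 in the knockdown, and the last 14 held 2386 and 3235, so 69.2% and 57.4% of the exon reads lay in the first set. The downstream 92-nt exon had a PSI of 18.0 and 30.1, with 2 and 17 inclusion reads in the control and 6 and 23 in the knockdown.

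In Cacna1a, a 254-nt exon near the 3′ end (chr8:87162511-87162764) had the widest gap in PSI of the named exons, 28.8 and 99.9, and it accounts for 2 of the 12 trios with a higher PSI. No skipping read was found in either library, inclusion junctions held 5 and 0 reads in the control and 9 and 5 in the knockdown, and junction PSI was 100 in both. Without skipping reads, junction PSI is 100 at any number of inclusion reads, and the interval of its change ran from -35.4 to 56.1. These counts therefore cannot decide whether inclusion of this exon differed.

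Across the 23 named exons, 11 had a PSI higher by 5 points or more, 7 had a PSI lower by as much and 5 differed by less. Each exon was read in the deepest of its trios that met the naming rule, and its other trios can differ less. The junction interval left out 0 in 4 of them: the 75-nt and downstream 60-nt exons of Cacna1c, the 84-nt exon of Cacna1b and the 111-nt exon of Grin1. Of the 21 that are whole exons, 17 follow a stretch with more pyrimidines than the median of all exons (55%). A CTCTCT precedes 4 of the 21, against 15.7% of the 153 exons of the channel genes and 9.76% of all exons.

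**Figure D4:**
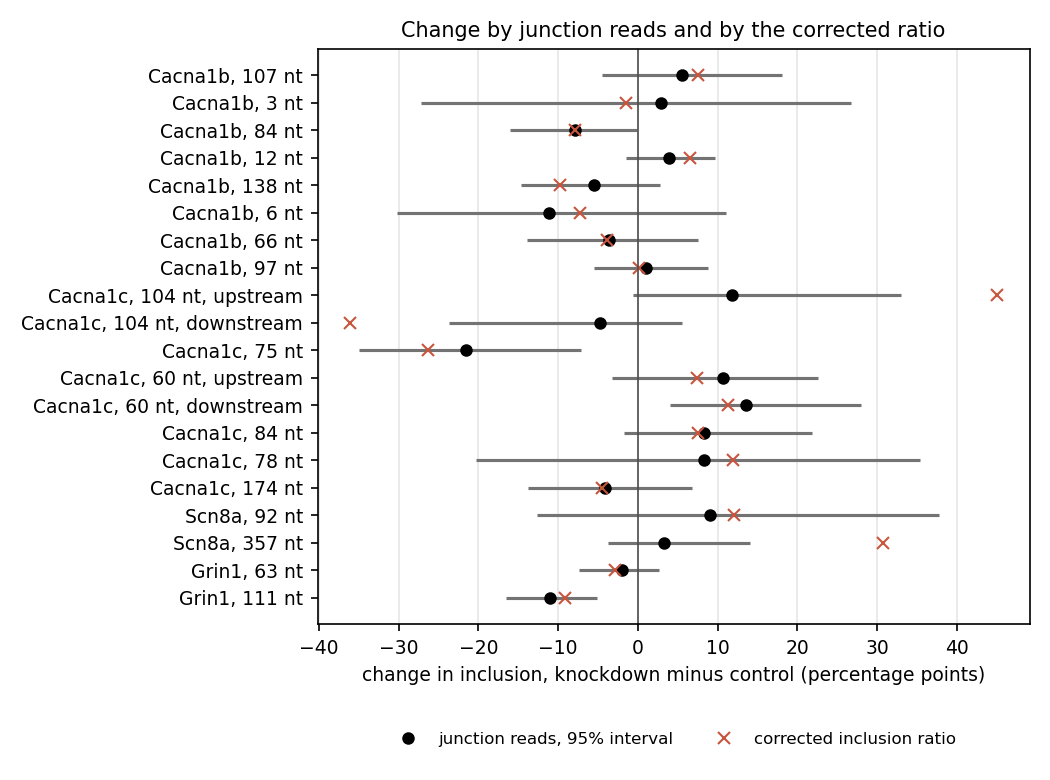
Change in inclusion (knockdown minus control, percentage points) of the named exons with at least 10 junction reads in each library, by junction reads with the 95% Newcombe interval as a line and by SpliceTrap's corrected ratio as a cross. The crosses of the 104-nt exons of Cacna1c and the 357-nt exon of Scn8a lie outside their junction intervals, and the intervals of 4 exons leave out 0.

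RNA of the 4 well-covered channel genes was higher in the knockdown library, by an amount that depended on the measure. The first measure sums coverage times length over the RefSeq isoforms of a gene and scales it to the library. Cacna1b had 859 read equivalents in the control and 2135 in the knockdown (log2 ratio 1.61), and Grin1 had 2261 and 6907 (log2 ratio 1.91). Scn8a had 5930 and 8705 (0.85), and Cacna1c had 4346 and 5779 (0.71). Cacna1b and Grin1 passed 2-fold, 2 of the 4 genes that could be compared, against 9.84% of 10256 genes of the files, and 0 of 4 fell by 2-fold, against 4.96%. Cacna1a was listed at 0 in both libraries and Cacna1h at 0 in the control and 114 in the knockdown.

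Cufflinks split reads of these loci between RefSeq isoforms and transcripts assembled anew in each library. Assembled transcripts held 89.0% of the Cacna1b locus in the control and 77.2% in the knockdown, 52.6% and 0% of the Grin1 locus, 52.4% and 34.9% of the Cacna1c locus and 32.5% and 10.8% of the Scn8a locus. With all isoforms of a locus summed, a measure added after seeing the data, the log2 ratios were 0.55 for Cacna1b, 0.83 for Grin1, 0.25 for Cacna1c and 0.45 for Scn8a. Another measure, also added, used the reads on SpliceTrap's exons, which need no division between isoforms.

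By exon reads, Cacna1b had 9382 in the control and 11360 in the knockdown (log2 ratio 0.62, counting interval 0.58 to 0.66). Grin1 had 6441 and 9713 (0.94, interval 0.89 to 0.98), Cacna1c 9388 and 9721 (0.39, interval 0.35 to 0.44) and Scn8a 7744 and 7599 (0.32, interval 0.27 to 0.36). The median log2 ratio of 11233 genes was 0.15 on this measure, so relative to it Grin1 was higher by 0.78, Cacna1b by 0.47, Cacna1c by 0.24 and Scn8a by 0.16. Of the low genes, Cacna1h had 114 and 232 exon reads (1.37, interval 1.05 to 1.69), and Cacna1a had 326 and 302 (0.23, interval 0.01 to 0.46). Cacna1h alone passed 2-fold by this measure, 1 of 6 genes with 100 exon reads, against 6.61% of all genes, and 0 fell, against 0.0979%. More cells that express a gene and more RNA per cell cannot be told apart in such bulk RNA. Neither Cacna1b nor Grin1 passed 2-fold by exon reads or by the locus sum.

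**Figure D5:**
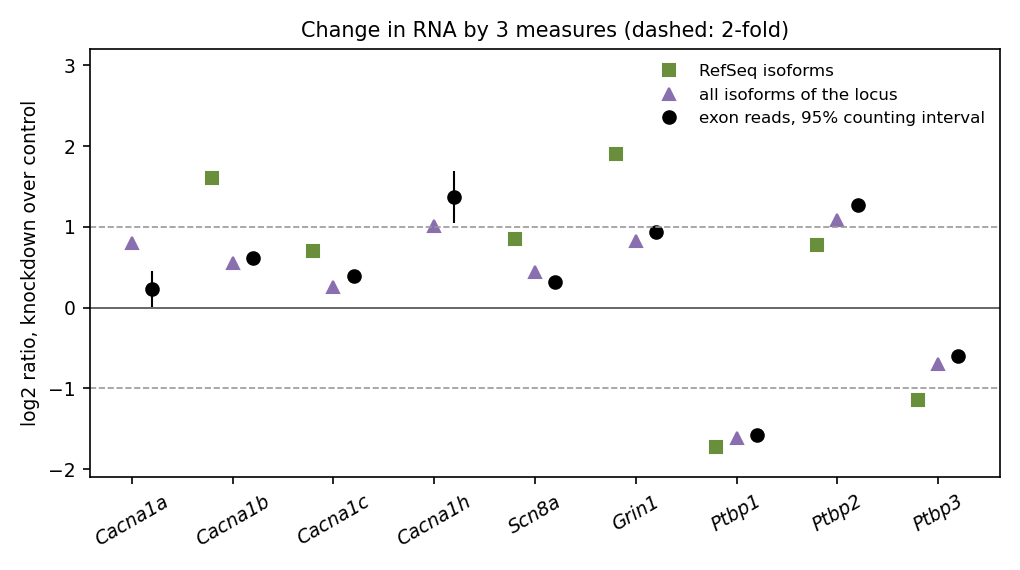
Log2 ratio of RNA, knockdown over control, for the channel genes with at least 100 exon reads in a library and for the PTB genes, by RefSeq isoforms (squares), all isoforms of the locus (triangles) and exon reads (circles, with 95% counting intervals as lines), with dashed lines at 2-fold. The RefSeq values of Cacna1b (1.61) and Grin1 (1.91) lie above their other 2 values, and Ptbp1 lies between -1.73 and -1.57 by all 3 measures.

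The subunits that assemble with these channels were read from lists of 38 other channel genes. By exon reads 15 of the 38 had at least 100 reads in a library, 6 were 2-fold or more higher in the knockdown and 0 were 2-fold lower, against 6.61% and 0.0979% of all genes, with a median log2 ratio of 0.98 beside 0.15 for all genes. Among the 6, of which 4 are named here, were Cacna1i, a T-type calcium channel pore (1348 and 2927 reads, log2 ratio 1.46), Cacnb1, an intracellular calcium channel subunit (3531 and 6027, 1.12), the sodium channel pore Scn1a (275 and 472, 1.12) and the BK channel accessory subunit Kcnmb4 (713 and 1292, 1.20). None of the 4 calcium channel alpha2delta genes reached 100 reads. Of the 6 other NMDA receptor subunits 2 reached it, Grin2d (log2 ratio 0.85) and Grin3b (0.99), and 0 passed 2-fold.

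By RefSeq isoforms, 8 of the 38 could be compared, 2 passed upward, among them Kcnmb4 (1.03), and 2 downward, against 9.84% and 4.96% of all genes. The latter were Cacna1g, a T-type pore (526 and 149 read equivalents, -1.53), and Kcnmb2, a BK channel subunit (1524 and 189, -2.72). By exon reads Cacna1g had a log2 ratio of 0.88 and Kcnmb2 one of -0.28, so neither passed 2-fold on that measure. The measures also differed for the genes that passed by exon reads. By RefSeq isoforms Cacnb1 had 1701 and 740 read equivalents (-0.91), Cacna1i had 644 in the control and was listed at 0 in the knockdown, and Scn1a was listed at 0 in the control and had 644 in the knockdown. With all isoforms of the locus, Cacnb1 had a log2 ratio of 1.06 and Cacna1i one of 1.26. Grin2a and Grin2b, the partner subunits of Grin1 in forebrain, had 0 exon reads in both libraries, while Grin2d had 128 and 182 and Grin3b 151 and 237.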

How the data were processed

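RNA-seq of N2A cells was analysed from 2 libraries, control shRNA and Ptbp1 shRNA, grouped by the labels, with 1 library in each group. Per the methods of the study, the authors ran SpliceTrap on the paired reads and deposited a table of exon trios on mm9 with a count of reads for each junction, an inclusion ratio (a fraction, raw and model-corrected) and a coverage scaled to 100 bases. The labels name CASAVA, TopHat and Cufflinks, with versions not given in the sources used here. From Cufflinks the authors deposited FPKM and a coverage signal (mean depth per base) for isoforms. Read equivalents and ppm were derived from this coverage and are not counts of reads. Whether SpliceTrap used read strand is not given in the sources used here. The authors' gene-level FPKM and transcript models were not used.

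Trio reads were coverage times summed exon size divided by 100, and PSI was the corrected fraction as a percent. Inclusion reads were the mean of both inclusion junctions, rounded. Fisher's exact tests were two-sided, and the pair test, the locus sums and the exon reads were chosen after seeing the data. Read equivalents were isoform coverage times length divided by 100, with RefSeq transcripts that Cufflinks had extended kept under their own ID, and 26482 of 27635 RefSeq IDs (95.8%) matched a symbol. Sequences and coding status came from the mm9 genome and its GENCODE annotation. RNA calls needed a 2-fold change and 100 read equivalents in 1 library. Named were all 8 genes, the PTB genes, every exon of the 8 with a PSI of 5 to 95 in a library or a change of 5 points, and other channel genes past 2-fold, of which some are not reported here. The members and lists were chosen with earlier results of these data known. The trio statistics were tested on simulated junction reads, with shifts placed only in trios with many junction reads and intermediate inclusion. Exon pairs and shifts in trios with few junction reads were not simulated. Tests ran in SciPy 1.17.1 with pandas 2.3.3 under Python 3.11.15, sequences were read with pysam 0.24.0, and plots were drawn with matplotlib 3.10.9.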

Additional observations from a re-analysis of the deposited data

How the results depend on the processing

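No trio of the channel genes was called upward under any setting tried: a minimum of 10 or 50 reads, a threshold of 10 points, the ratio before correction, junction PSI or the larger inclusion junction. Downward, the larger inclusion junction called 1, the 111-nt exon of Grin1, and the other settings called 0. The threshold of 10 points could only remove calls. The ratio before correction and junction PSI kept the main Fisher test. No trio of the channel genes had an adjusted p below 0.05 in it, so these settings could add no call in either direction. Channel genes past 2-fold upward numbered 2 by RefSeq isoforms, and 1 both with all isoforms of the locus and with exon reads, 2 measures added after the data were seen. Of the other channel genes, 2 were past 2-fold upward by RefSeq isoforms, 1 after scaling to the median ratio, 6 without the depth filter, 5 by locus and 6 by exon reads. Downward, 2 became 0 by locus and 0 by exon reads. The cause was not tested. Over these measures, the most abundant isoform alone and the deposited FPKM, the log2 ratio ran from 0.83 to 3.02 for Grin1 and from 0.55 to 2.03 for Cacna1b, upward in each. Both called Cacna1c pairs kept their direction on each single junction. No paired analysis was possible because each group has 1 library, and leaving out a library leaves no comparison. Trio tests are limited by junction reads, which numbered under 20 for several named exons.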
